A study of Homo sapiens with 5 samples.

Results

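The transcripts of 10 Notch pathway genes were followed by RNA-seq in cells in which BPTF had been silenced. These were the 4 receptors NOTCH1, NOTCH2, NOTCH3 and NOTCH4, the 4 ligands JAG1, JAG2, DLL1 and DLL3, and the targets HES1 and HEY1. The genes were taken by symbol, matched to their Ensembl identifiers, from the 31029 genes listed for both cell lines. The rule names the genes and uses no measured value, but it was written with earlier results of these data known. All 10 genes passed the filter on low counts that left 17918 genes for testing, and the lowest count of any of them in any library was 46. Libraries were made from 501Mel, a line of human melanoma cells with MITF expression (2 replicates, called 501Mel shBPTF), and from Hermes 3A, an untransformed human melanocyte cell line (3 replicates, called Hermes 3A shBPTF). All 5 libraries came from puromycin-selected cells infected with lentivirus expressing an shRNA against BPTF, a subunit of the NURF chromatin remodelling complex. No control counts were analysed here, so that the only comparison was between the lines and no effect of the knockdown is given. The study used 2 shBPTF constructs, and which of them went into which library was not given in the sources used here. Hermes 3A cells were grown with TPA, cholera toxin, stem cell factor and endothelin-1, while the medium of 501Mel cells did not contain these factors. The cell line and its medium cannot be told apart. Since every library was shBPTF, a difference present before silencing and a different response to silencing cannot be told apart either. Each line is a single cell line, and nothing in the labels says how separate the replicate cultures were, so that p-values measure only the spread between these libraries.

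Notch receptors are single-pass membrane proteins that are cut by FURIN during their passage to the surface. On contact with a DSL ligand of the Jagged or Delta family on a neighbouring cell they are cut again, by an ADAM protease and then by γ-secretase, and the released intracellular domain enters the nucleus. There it joins the DNA-binding protein RBPJ and a MAML coactivator and turns on genes such as HES1 and HEY1, which encode basic helix-loop-helix repressors. In the melanocyte lineage Notch signalling, acting through RBPJ and HES1, is known for the maintenance of melanoblasts and melanocyte stem cells, and Notch activity has been linked to melanoma growth. DLL3 is an unusual ligand that is found mainly inside the cell and is known to inhibit Notch signalling in the cell that makes it.

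The promoters of HES1 and of 2 relatives, HES4 and HEY2, are shown because HES1 differed widely between replicates, because HES4 and HEY2 had the largest differences between the lines among the tested HES and HEY genes, and because each promoter holds the core letters of the RBPJ site, TGGGAA or its reverse complement TTCCCA. The sequences are from RefSeq (GRCh38.p14), on the strand of the gene, and cover 240 bases from 250 to 11 bases before the gene's start. They span chr3:194135898-194136137 on the plus strand for HES1, chr1:1000108-1000347 on the minus strand for HES4 and chr6:125749382-125749621 on the plus strand for HEY2. Capitals mark the match to the RBPJ letters.
HES1: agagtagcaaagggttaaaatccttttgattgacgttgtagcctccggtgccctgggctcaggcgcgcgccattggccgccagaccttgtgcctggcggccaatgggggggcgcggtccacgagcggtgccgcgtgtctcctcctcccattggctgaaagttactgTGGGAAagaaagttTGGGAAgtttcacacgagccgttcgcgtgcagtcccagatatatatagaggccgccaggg
HES4: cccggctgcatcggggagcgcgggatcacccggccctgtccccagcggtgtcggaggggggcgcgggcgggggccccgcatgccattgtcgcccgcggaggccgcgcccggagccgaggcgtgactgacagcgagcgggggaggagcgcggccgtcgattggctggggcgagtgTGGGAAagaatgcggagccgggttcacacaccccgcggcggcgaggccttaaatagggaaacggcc
HEY2: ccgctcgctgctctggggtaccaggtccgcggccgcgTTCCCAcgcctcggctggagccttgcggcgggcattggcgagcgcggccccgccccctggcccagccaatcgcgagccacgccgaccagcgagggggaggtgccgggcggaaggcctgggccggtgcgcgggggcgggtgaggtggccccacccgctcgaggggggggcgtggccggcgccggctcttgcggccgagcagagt
HES1 held 2 matches in the same direction, with first bases 84 and 70 bases before the start. HES4 held 1 match in that direction, 76 bases before the start, and HEY2 held 1 in the other direction, 213 bases before it. A promoter was found for 7 of the 10 members (NOTCH1, NOTCH2, NOTCH3, NOTCH4, JAG1, JAG2 and HES1), and HES1 was the 1 member of these 7 with the RBPJ letters, which were present in 20.2% of 35116 RefSeq promoters of this length on either strand. The E-box CACGTG, which is its own reverse complement, and the M-box letters CATGTG (or CACATG), both bound by MITF, were found in 6.01% and 9.13% of the promoters and in 0 of the 7. The N-box CACNAG (or CTNGTG), a binding site of HES proteins, was present in 31.0% of the promoters and in 3 of the 7 members, HES1, NOTCH3 and NOTCH4. These matches describe letters in a window of sequence, the motifs can share bases where they lie side by side, and no binding was measured.

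The libraries held between 30073071 and 43032311 counts, at which 3 counts correspond to between 0.0697 and 0.0998 CPM (counts per total count of the library, times 1e6). These limits cover counting error only. Each of the 7 melanocytic markers that were examined reached 1 CPM in both lines, and their summed level ranged from 12718 to 19661 CPM in 501Mel and from 31651 to 32728 CPM in Hermes 3A. The sum hides DCT, an enzyme of melanin synthesis, which went the other way. DCT had 1068 and 1300 CPM in 501Mel against 7.37, 8.83 and 13.1 CPM in Hermes 3A (edgeR log2 fold change 6.87, adjusted p = 1.6e-05). MITF had 702 and 854 CPM in 501Mel against 643, 674 and 678 CPM in Hermes 3A, without a significant difference (edgeR log2 fold change 0.17, adjusted p = 0.433). Leukocyte markers summed to at most 0.587 CPM, with all 5 genes under 1 CPM in every library. Keratinocyte markers summed to between 32.7 and 34.2 CPM in 501Mel and between 43.6 and 48.0 CPM in Hermes 3A. Nearly all of this was KRT10, with 32.6 and 34.1 CPM in 501Mel and 47.4, 43.2 and 43.4 CPM in Hermes 3A. The edgeR log2 fold change of KRT10 was -0.49 (adjusted p = 0.0350). KRT14 and TP63 stayed under 1 CPM, while KRT5 and KRT1 were listed for neither line and have no measured level. Fibroblast markers summed to between 3.35 and 15.4 CPM in 501Mel and between 77.6 and 189 CPM in Hermes 3A, with 2 and 3 of 5 genes reaching 1 CPM and with DCN and PDGFRB under 1 CPM throughout. This difference was carried by COL1A2, a collagen gene with 0.0697 and 0.106 CPM in 501Mel and 69.5, 180 and 187 CPM in Hermes 3A, whereas COL1A1 and LUM overlapped between the lines and had higher means in 501Mel (3.63 against 0.680 CPM and 5.33 against 3.15 CPM). Endothelial markers summed to between 0.651 and 0.792 CPM in 501Mel and between 9.25 and 12.9 CPM in Hermes 3A. This sum was carried in Hermes 3A by KDR, with 12.4, 8.64 and 10.1 CPM there against 0.395 and 0.370 CPM in 501Mel. The edgeR log2 fold change of KDR was -4.82 (adjusted p = 0.000146). CDH5, VWF and TEK stayed under 1 CPM, while PECAM1 was listed for neither line and has no measured level. The part of these marker differences in the results was not tested. BPTF itself had 65.8 and 57.8 CPM in 501Mel and 45.8, 51.6 and 54.1 CPM in Hermes 3A (edgeR log2 fold change 0.23, SE 0.139, adjusted p = 0.211), and without control counts this level does not check the knockdown. Between replicates, replicate 1 of Hermes 3A stood apart. The chi-square per gene was 96.1 and 101 between it and the other two, against 21.5 between these and 72.9 between the 501Mel replicates, where counting noise alone gives about 1.

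To ask how far the Notch genes differed between the BPTF-silenced melanoma and melanocyte lines, counts were compared with edgeR's quasi-likelihood test. The p-values were adjusted over all 17918 genes (Benjamini-Hochberg). A log2 fold change is that of 501Mel over Hermes 3A, and called genes are those with an adjusted p under 0.05. NOTCH2, NOTCH3, JAG1 and HEY1 were higher in 501Mel, and DLL3 was lower. The largest differences were those of DLL3, which was 10.5-fold lower in 501Mel, and HEY1, which was 7.35-fold higher. NOTCH1, NOTCH4, JAG2, DLL1 and HES1 were not called. Of the 10 genes 5 were thus called, against 48.4% of all genes tested. The 4 called as higher compare with 24.3% of all genes and the 1 called as lower with 24.1%. The CPM values of the lines did not overlap for 6 of the 10 genes, 5 of them higher in 501Mel and 1 lower, while 69.9% of all genes tested did not overlap. The share of called genes was thus close to that of the transcriptome. The median absolute log2 fold change was 1.22 for the 10 genes and 0.79 for all genes, and the median signed change was 0.20 and 0.02. In these bulk libraries more cells with a transcript and more transcript per cell cannot be told apart.

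**Figure D1:**
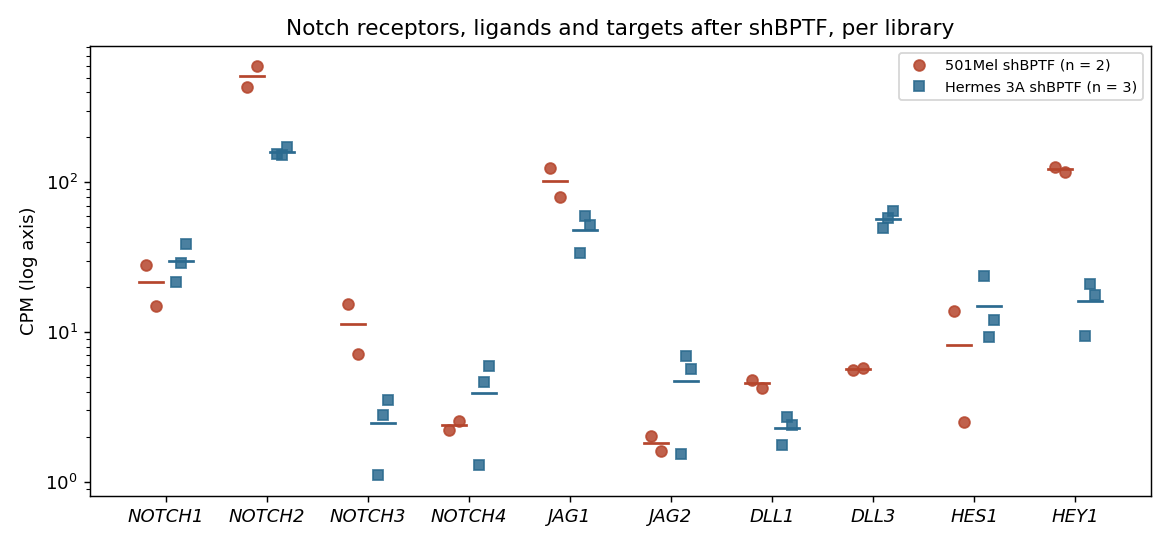
CPM (log axis) of the 10 Notch genes in each library, with 501Mel shBPTF as circles (n = 2), Hermes 3A shBPTF as squares (n = 3) and the mean of each line as a bar. The points of the lines stand apart for NOTCH2, NOTCH3, JAG1, DLL1, DLL3 and HEY1 and overlap for NOTCH1, NOTCH4, JAG2 and HES1.

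Of the receptors, NOTCH2 had the smallest adjusted p. NOTCH2 (ENSG00000134250, GRCh38 chromosome 1, from 119911553 to 120069626) had 434 and 595 CPM in the 501Mel replicates and 155, 153 and 172 CPM in those of Hermes 3A. Both 501Mel values lay well above the narrow range of the melanocytes. The means were 514 CPM ± 114 (SD, n = 2) and 160 CPM ± 10.6 (SD, n = 3), a 3.09-fold difference (log2 fold change 1.63, SE 0.179, edgeR adjusted p = 0.000508). NOTCH2 shares nearly identical sequence with the NOTCH2NL genes elsewhere on chromosome 1, so that the counted reads could have been split between the copies and its level is uncertain to that extent.

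NOTCH3 is a receptor best known from vascular smooth muscle. NOTCH3 (ENSG00000074181, chromosome 19, from 15159038 to 15200981) had 15.4 and 7.16 CPM in 501Mel and 1.10, 2.79 and 3.52 CPM in Hermes 3A, so that the lower melanoma replicate was still above the highest melanocyte replicate. The log2 fold change was 2.14 (SE 0.521, edgeR adjusted p = 0.0129), a 4.40-fold difference that rested in part on 501Mel replicate 1. Without that replicate the log2 fold change of NOTCH3 was 1.49, with an adjusted p of 0.105.

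NOTCH1, a receptor best known from T cell development, and NOTCH4, known mainly from endothelium, overlapped between the lines. NOTCH1 (ENSG00000148400, chromosome 9, from 136494433 to 136545786) had 28.2 and 15.0 CPM in 501Mel against 21.5, 28.9 and 38.8 CPM in Hermes 3A (log2 fold change -0.52, SE 0.327, edgeR adjusted p = 0.224). NOTCH4 (ENSG00000204301, chromosome 6, from 32194843 to 32224067) had 2.21 and 2.56 CPM in 501Mel, between the 1.30 CPM of Hermes 3A replicate 1 and the 4.60 and 5.89 CPM of the other two (log2 fold change -0.76, SE 0.599, edgeR adjusted p = 0.326). Without Hermes 3A replicate 1 the log2 fold change of NOTCH4 was -1.19 and passed the test (adjusted p = 0.0259). An exon of NOTCH4 overlaps the gene GPSM3 on the same strand, and reads there could have been counted on either gene.

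Levels of different genes were compared only after division by gene length, as CPM per kb of union exon length in GENCODE 29. Among the summed receptors, NOTCH2 took 84.9% and 93.5% in 501Mel and 79.8%, 71.8% and 68.4% in Hermes 3A. NOTCH1 took 8.95% and 3.82% in 501Mel and 18.0%, 22.1% and 25.0% in Hermes 3A, so that the ranges of both shares stood apart between the lines. The ratio of NOTCH2 to NOTCH1 on this scale was 9.49 and 24.4 in 501Mel and 4.44, 3.25 and 2.73 in Hermes 3A. The size of these shares depends on the length chosen, and the median transcript length gave NOTCH2 a mean share of 80.9% in 501Mel and 59.2% in Hermes 3A. A difference between libraries in the ratio of a given pair of genes does not depend on the length.

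The ligands differed between the lines in both directions. JAG1, a Jagged ligand that binds and activates the receptors of neighbouring cells, was higher in 501Mel, and the Delta family member DLL3 was higher in Hermes 3A. JAG1 (ENSG00000101384, chromosome 20, from 10637684 to 10673999) had 125 and 79.8 CPM in 501Mel and 33.8, 59.4 and 51.9 CPM in Hermes 3A. The lines did not overlap, and their means were 102 CPM ± 31.9 (SD, n = 2) and 48.4 CPM ± 13.2 (SD, n = 3). The log2 fold change was 1.02 (SE 0.255, edgeR adjusted p = 0.0140), or 2.03-fold. The call rested on 501Mel replicate 1, without which the log2 fold change of JAG1 was 0.67 (adjusted p = 0.119).

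DLL3 had the smallest adjusted p of the 10 genes. DLL3 (ENSG00000090932, chromosome 19, from 39498895 to 39508481) had 5.53 and 5.78 CPM in 501Mel, from 238 and 219 counts, and 49.3, 57.6 and 64.8 CPM in Hermes 3A, from 2053, 2353 and 1949 counts. The replicates of each line lay close together and far from those of the other. The means were 5.66 CPM ± 0.180 (SD, n = 2) and 57.2 CPM ± 7.77 (SD, n = 3), with a log2 fold change of -3.40 (SE 0.191, edgeR adjusted p = 4.1e-05). Leaving out any 1 library kept the log2 fold change of DLL3 between -3.49 and -3.35.

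DLL1 and JAG2 are activating ligands that were found at low levels. DLL1 (ENSG00000198719, chromosome 6, from 170282206 to 170306565) had 4.81 and 4.25 CPM in 501Mel and 1.75, 2.72 and 2.39 CPM in Hermes 3A. Its lines did not overlap, but the adjusted p of 0.0545 (edgeR, log2 fold change 0.93, SE 0.335) just missed the threshold, and with DESeq2 or limma-voom it passed (adjusted p = 0.0116 and 0.0369). JAG2 (ENSG00000184916, chromosome 14, from 105140981 to 105168824) had 2.02 and 1.61 CPM in 501Mel and 1.54, 6.90 and 5.62 CPM in Hermes 3A (log2 fold change -1.41, SE 0.612, edgeR adjusted p = 0.0952). Replicate 1 of Hermes 3A was the lowest of all 5 libraries for JAG2, and without it the log2 fold change was -1.83 (adjusted p = 0.00495). JAG2 also passed with DESeq2 (adjusted p = 0.0361).

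Per kb of union exon, JAG1 took 77.4% and 69.4% of the summed ligand level in 501Mel and 15.6%, 21.1% and 17.5% in Hermes 3A. DLL3 took 12.2% and 17.9% in 501Mel and 81.0%, 72.6% and 77.5% in Hermes 3A. The ratio of JAG1 to DLL3 was 6.36 and 3.88 in 501Mel and 0.193, 0.290 and 0.226 in Hermes 3A. With the median transcript length JAG1 had the larger mean share of the pair in both lines, 94.6% in 501Mel and 58.2% in Hermes 3A. DLL3 led JAG1 in Hermes 3A with the longest transcript length and without length scaling (mean shares without scaling 51.5% and 42.6%). Which ligand led in Hermes 3A thus depends on the length, whereas the direction of the difference between the lines does not.

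**Figure D2:**
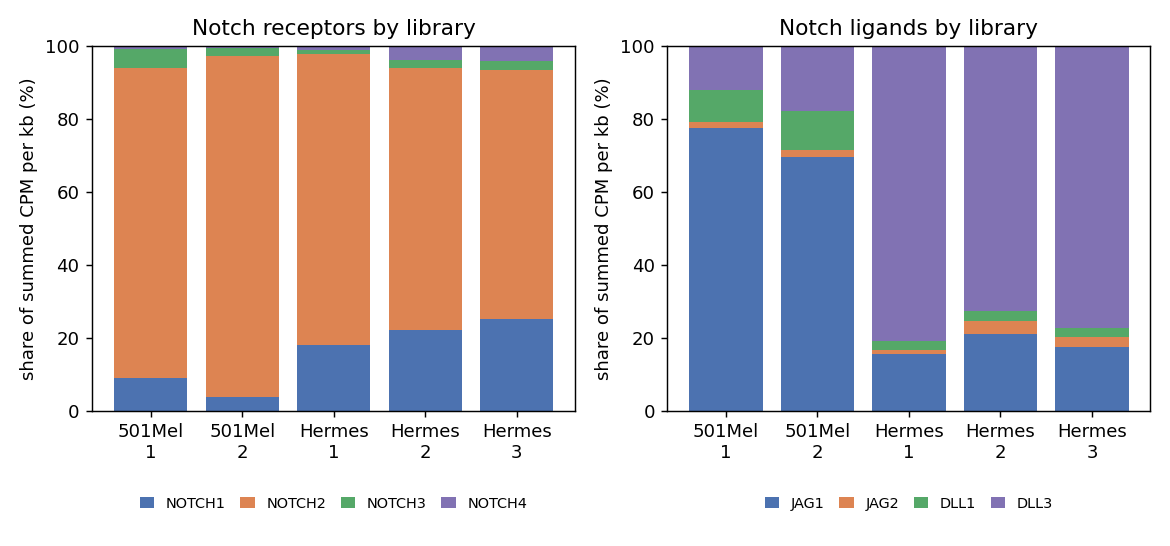
Share (%) of each receptor (left) and ligand (right) in the summed CPM per kb of union exon length, 1 bar for each library of 501Mel and Hermes 3A. NOTCH2 takes the largest share of the receptors in every library, at least 68.4%, while JAG1 leads the ligands in 501Mel and DLL3 in Hermes 3A.

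The targets HEY1 and HES1 did not follow each other. HEY1 (ENSG00000164683, chromosome 8, from 79764010 to 79767863) had 127 and 117 CPM in 501Mel, from 5467 and 4415 counts, and 9.41, 20.8 and 17.8 CPM in Hermes 3A, from 392, 851 and 534 counts. The 501Mel replicates agreed closely and stood far above the 3 melanocyte replicates. The means were 122 CPM ± 7.37 (SD, n = 2) and 16.0 CPM ± 5.91 (SD, n = 3), with a log2 fold change of 2.88 (SE 0.286, edgeR adjusted p = 0.000334). Leaving out any 1 library gave values of HEY1 between 2.61 and 3.04.

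HES1, whose promoter with 2 RBPJ matches is shown above, varied more between the replicates of 501Mel than between the lines. No promoter was found for HEY1, so that it was not searched for the RBPJ letters. HES1 (ENSG00000114315, chromosome 3, from 194136145 to 194138732) had 13.9 and 2.51 CPM in 501Mel, from 598 and 95 counts, and 23.6, 9.25 and 11.9 CPM in Hermes 3A, from 984, 378 and 359 counts. The 501Mel replicates differed by 5.54-fold, and the higher of them lay inside the melanocyte range. The SD of log2(CPM + 1) over the 501Mel replicates was 1.47 for HES1, where the median gene had 0.140 and the 90th percentile was 0.443. The log2 fold change of -0.96 had an SE of 0.713 (edgeR adjusted p = 0.301). Without 501Mel replicate 1 it was -2.65 (adjusted p = 0.0281) and without 501Mel replicate 2 it was -0.22 (adjusted p = 0.788), so that the call of HES1 turned on which 501Mel library was kept. The ratio of HEY1 to HES1, in CPM per kb of union exon, was 5.83 and 29.6 in 501Mel and 0.254, 1.44 and 0.949 in Hermes 3A, with no overlap between the lines.

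**Figure D3:**
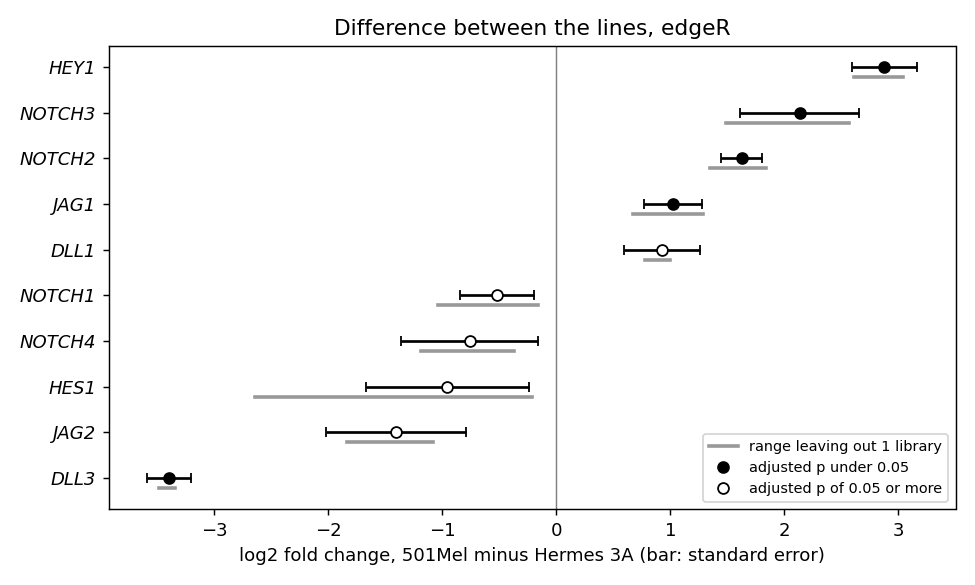
Log2 fold change of each Notch gene, 501Mel minus Hermes 3A, from edgeR. Bars are standard errors, filled points have an adjusted p under 0.05, and the grey line under each point spans the values obtained by leaving out 1 library at a time, which is widest for HES1 and narrow for DLL3.

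The replicate error was not the same for all of the genes. In Hermes 3A, 9 of the 10 genes had an SD of log2(CPM + 1) above the median gene (0.170), and in 501Mel 6 of 10 did (0.140). Replicate 1 of Hermes 3A gave the lowest of the 3 values for 8 of the 10 genes, against 47.5% of all genes tested, and it gave the highest for HES1. Replicate 1 of 501Mel gave the higher value for 7 of the 10 genes, HES1 among them, against 54.9% of all genes tested. HES1 was thus highest in replicate 1 of both lines.

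Ordered by CPM per kb of union exon length, HEY1 (37.7 ± 2.28, SD, n = 2) and NOTCH2 (30.6 ± 6.79) led in 501Mel, followed by JAG1 (11.0 ± 3.43). Then came HES1 (3.98 ± 3.90), DLL3 (2.16 ± 0.0687), NOTCH1 (2.08 ± 0.900), DLL1 (1.49 and 1.32 in the replicates) and NOTCH3 (1.20 ± 0.617), and last JAG2 (0.284 ± 0.0454) and NOTCH4 (0.245 ± 0.0257). The replicate ranges of neighbours in this order stood apart from HEY1 down to HES1 and between NOTCH3 and JAG2, and the other neighbours overlapped. In Hermes 3A the order opened with DLL3 (21.9 ± 2.97, SD, n = 3), whose range stood apart from that of NOTCH2 (9.50 ± 0.628). HES1 (7.24 ± 3.71), JAG1 (5.20 ± 1.41), HEY1 (4.95 ± 1.83) and NOTCH1 (2.87 ± 0.836) followed with overlapping neighbours. A gap separated these from JAG2 (0.732 ± 0.438), DLL1 (0.709 ± 0.152), NOTCH4 (0.403 ± 0.243) and NOTCH3 (0.263 ± 0.132), which overlapped with their neighbours. Of the 45 pairs of genes, the order of 38 in 501Mel and 34 in Hermes 3A was the same with the median transcript length, under which NOTCH2 led in 501Mel and JAG1 in Hermes 3A. With the longest transcript 44 and 45 pairs kept their order.

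The genes nearest to HES1 and HEY1 in profile were found by the Euclidean distance of centred log2(CPM + 1) values over the 5 libraries, among 7571 genes with a range of at least 1 on that scale. HES1 was nearest to NFATC1 (distance 0.313), ARHGEF4 (0.414) and EGR2 (0.434). NFATC1 had 459 and 79 counts in 501Mel and 762, 289 and 223 in Hermes 3A. EGR2 had 197 and 30 against 436, 170 and 118. Both were highest in replicate 1 of each line, as HES1 was, which follows from choosing them by nearness to HES1. HEY1 was nearest to IRX6 (0.249), CDH7 (0.458) and FABP7 (0.522). IRX6 had 662 and 601 counts in 501Mel and 14, 66 and 53 in Hermes 3A. The measure describes 5 points that share libraries and has no test.

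The remaining HES and HEY genes and the other genes of the pathway were then examined, from 8 lists of 81 genes. Of these genes 74 were tested and 40 were called, 18 higher and 22 lower in 501Mel, or 54.1% against 48.4% of all genes. Individual genes named here beyond the 2 with the smallest adjusted p at a 2-fold difference in each list were chosen after their values were seen.

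Of 10 tested genes in the list of other HES, HEY and feedback targets, HEY2 and NRARP were higher in 501Mel and HES2, HES4, HES6, HES7 and CCND1 were lower, while 3 were not called. Of all genes tested 24.3% were called as higher and 24.1% as lower. HEY2, the close relative of HEY1, had 44.8 and 54.8 CPM in 501Mel and 1.03, 0.318 and 0.200 CPM in Hermes 3A (log2 fold change 6.46, SE 0.584, edgeR adjusted p = 0.000232), so that both HEY genes that could be tested were higher in the melanoma line. HES4 went the other way, with 0.325 and 1.03 CPM in 501Mel and 11.7, 13.1 and 16.0 CPM in Hermes 3A (log2 fold change -4.39, SE 0.530, edgeR adjusted p = 0.00075). HES4 and HES1 hold the RBPJ letters in the same direction and at similar distances in the promoters printed above. Whether these letters bear on the level of either gene was not tested. HES6, which is known to oppose HES1, had 105 CPM ± 10.1 (SD, n = 2) in 501Mel and 188 CPM ± 62.3 (SD, n = 3) in Hermes 3A (log2 fold change -0.90, SE 0.271, edgeR adjusted p = 0.0287). HES5 had 0 counts in every library except 1 with 2 counts, and HEYL had 1 count in 1 library, and neither was tested. NRARP, a feedback inhibitor of Notch, had at most 0.860 CPM (log2 fold change 2.23, SE 0.561, edgeR adjusted p = 0.0145).

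**Figure D4:**
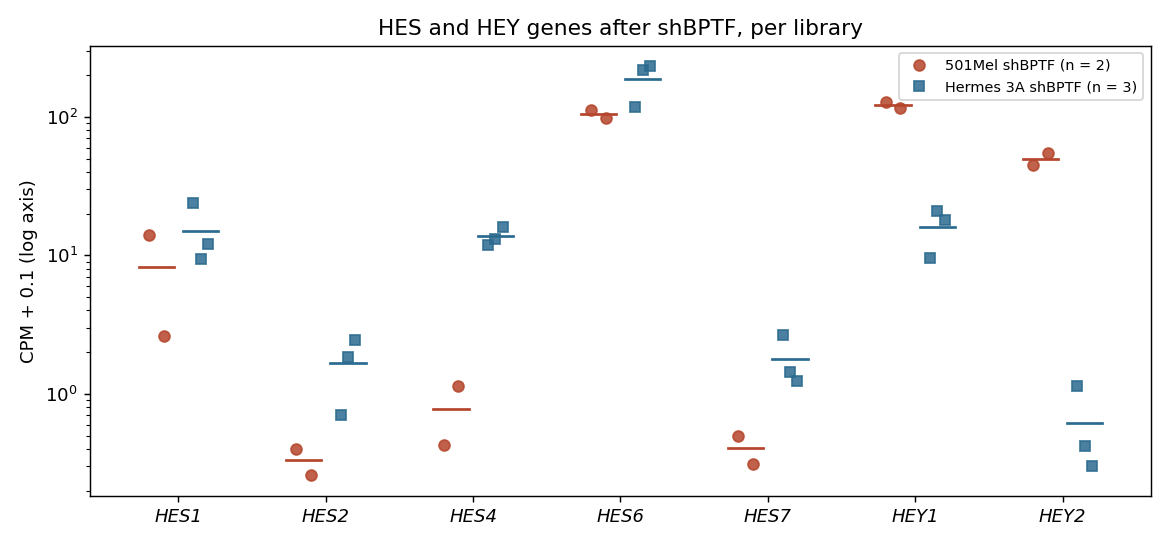
CPM + 0.1 (log axis) of HES1, HES2, HES4, HES6, HES7, HEY1 and HEY2 in each library, with 501Mel shBPTF as circles (n = 2), Hermes 3A shBPTF as squares (n = 3) and bars at the mean of each line. HEY1 and HEY2 lie higher in 501Mel, HES2, HES4, HES6 and HES7 lie lower, and the points of HES1 overlap.

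Among the other ligands, 2 of 5 tested genes were higher in 501Mel and 2 were lower, or 80.0% called against 48.4% of all genes. DNER, a Delta and Notch-like ligand without the DSL domain, had 8.84 CPM ± 3.47 (SD, n = 2) in 501Mel and 193 CPM ± 27.9 (SD, n = 3) in Hermes 3A (log2 fold change -4.51, SE 0.306, edgeR adjusted p = 7.6e-05). NOV, a secreted matricellular protein reported to bind NOTCH1, was also lower in 501Mel (log2 fold change -3.15). The 2 that were higher were CNTN1 (3.67) and DLL4 (4.37), the latter with 100 and 72 counts in 501Mel and 1, 9 and 1 in Hermes 3A.

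In the list of enzymes that add sugars to the Notch receptors, 5 of 8 tested genes were higher in 501Mel, 0 were lower and 3 were not called, where 24.3% of all genes were called as higher. The 5 were POFUT1 and POGLUT1, which add O-fucose and O-glucose, GXYLT1 and GXYLT2, which extend O-glucose with xylose, and EOGT. GXYLT2 had 24.4 CPM ± 0.470 (SD, n = 2) in 501Mel and 3.87 CPM ± 1.59 (SD, n = 3) in Hermes 3A (log2 fold change 2.61, SE 0.358, edgeR adjusted p = 0.00124), and the other 4 had log2 fold changes between 0.60 and 0.91. The Fringe enzymes LFNG (-0.46, adjusted p = 0.272) and RFNG (-0.42, adjusted p = 0.123) were not called, and MFNG was not tested.

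Of the 9 genes for receptor cleavage, 2 were higher in 501Mel (ADAM17 and APH1A), 4 were lower and 3 were not called, or 66.7% called against 48.4% of all genes. APH1B, a subunit of γ-secretase, had 4.65 and 4.49 CPM in 501Mel and 54.6, 49.7 and 41.3 CPM in Hermes 3A (log2 fold change -3.48, SE 0.219, edgeR adjusted p = 5.7e-05), whereas its paralogue APH1A was higher in 501Mel by 0.51 on the log2 scale. FURIN, the protease of the first cut, had 93.3 and 76.5 CPM in 501Mel and 435, 396 and 384 CPM in Hermes 3A (log2 fold change -2.32, SE 0.174, edgeR adjusted p = 0.000117). NCSTN was at the limit of the call, with an adjusted p of 0.049997.

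RBPJ, the DNA-binding protein of the nuclear complex, had 142 and 115 CPM in 501Mel and 108, 108 and 110 CPM in Hermes 3A (log2 fold change 0.17, SE 0.141, edgeR adjusted p = 0.343). Of 9 tested genes of this list, EP300 was higher in 501Mel (0.40), KAT2B was lower (-0.65) and 7 were not called, so that 22.2% were called against 48.4% of all genes. Of the 14 corepressor genes, SPEN, NCOR1, HDAC1 and HDAC2 were higher, with log2 fold changes from 0.43 to 0.82, 3 were lower and 7 were not called, and 48.4% of all genes were called. TLE4, a Groucho-type corepressor, had 4.35 and 1.82 CPM in 501Mel and 8.91, 5.97 and 7.25 CPM in Hermes 3A (log2 fold change -1.33, SE 0.446, edgeR adjusted p = 0.0420). The call of TLE4 was lost without 501Mel replicate 2, where its log2 fold change was -0.86, and without any 1 of the Hermes 3A replicates, where it lay between -1.54 and -1.16. With all libraries kept it was also lost when library totals replaced TMM (-1.25, adjusted p = 0.0513).

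Of the 8 genes for ligand endocytosis, MIB2, EPN1 and DNM2 were lower in 501Mel, 0 were higher and 5 were not called. The share called was 37.5%, against 48.4% of all genes. Of the 11 genes for receptor turnover, ITCH and DTX4 were higher and NUMB, DTX2, DTX3 and NEDD4L were lower, or 54.5% called. DTX4, of the Deltex family of ubiquitin ligases, had 46.3 and 34.5 CPM in 501Mel and 7.80, 15.1 and 17.4 CPM in Hermes 3A (log2 fold change 1.53, SE 0.317, edgeR adjusted p = 0.00664). Without 501Mel replicate 1 its adjusted p was 0.0504. DTX3 had 0 and 1 counts in 501Mel and 946, 914 and 718 in Hermes 3A. From the summed counts the ratio of Hermes 3A to 501Mel for DTX3 was 1852, with an exact 95% interval of 332 to 73183 that covers counting error only. NUMB, an adaptor that promotes the removal of Notch receptors from the membrane, had 51.1 CPM ± 0.599 (SD, n = 2) in 501Mel and 84.3 CPM ± 3.01 (SD, n = 3) in Hermes 3A (log2 fold change -0.79, SE 0.126, edgeR adjusted p = 0.00238).

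**Figure D5:**
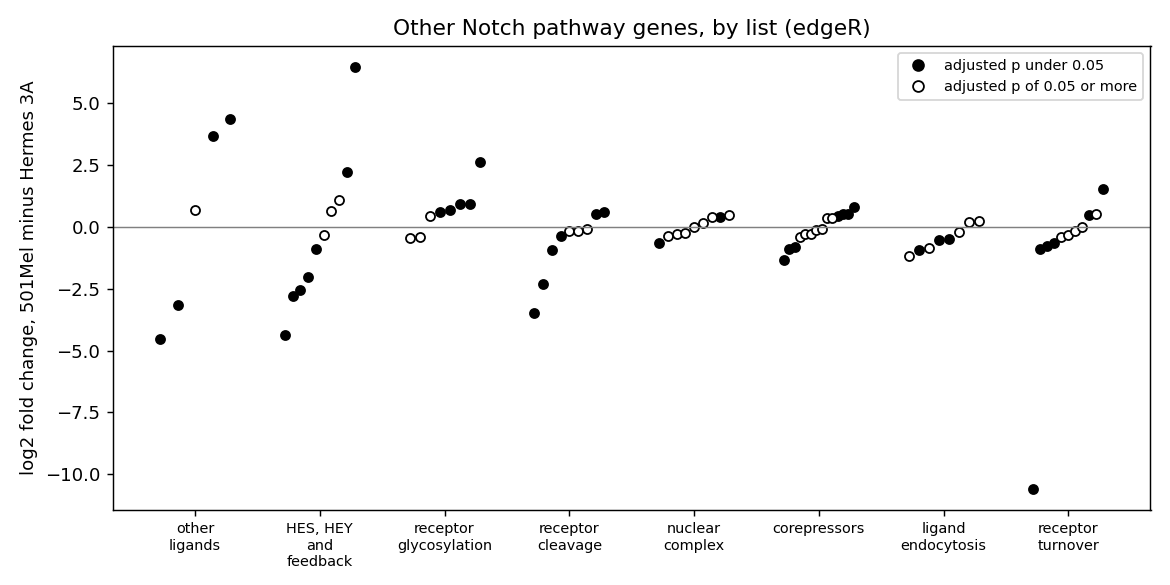
Log2 fold change, 501Mel minus Hermes 3A (edgeR), of each tested gene in the 8 lists of other Notch pathway genes, ordered within each list. Filled points have an adjusted p under 0.05. The median absolute log2 fold change is largest for the other ligands (3.67) and the HES, HEY and feedback genes (2.13). The fitted value of DTX3, the lowest point, depends on the fit because this gene had 1 count in all in 501Mel.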

How the data were processed

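RNA was prepared from shBPTF-infected 501Mel (n = 2) and Hermes 3A (n = 3) cells. Ribosomal RNA was removed from total RNA, and libraries were treated with a duplex-specific nuclease, which lowers abundant cDNA and can compress differences of high levels. The authors deposited raw read counts per gene and library, not normalized, under Ensembl identifiers. Per the labels, processing used CASAVA 1.8, TopHat 1.4.1 and Bowtie 0.12.7 on hg19. The counting program, its annotation and the strand of the kit were not given in the sources used here, so that reads of overlapping or antisense genes cannot be told apart. The authors listed 37259 genes for 501Mel and 34033 for Hermes 3A. The 31029 genes in both were analysed, and those listed for 1 line held at most 0.712% of a library.

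Groups and replicate numbers were taken from the sample titles. Counts were analysed with edgeR 4.0.16 in R 4.3.3 (filterByExpr, TMM factors from 0.942 to 1.037, quasi-likelihood test, cell line as the only term), and calls were made at a Benjamini-Hochberg adjusted p under 0.05 over the 17918 genes tested. The SE is the absolute log2 fold change divided by the square root of the F statistic. CPM are relative to deposited totals. Names, coordinates and lengths are from GENCODE 29 (GRCh38), and promoters from RefSeq (GRCh38.p14). NOTCH2NL, as a symbol, had no match.

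The Notch genes and the pathway lists were chosen with earlier results of these data known. The genes named were the 10 members, BPTF, RBPJ, up to 2 genes per list with the lowest adjusted p at an absolute log2 fold change of at least 1, the 3 genes nearest to HES1 and to HEY1, and genes in counts of 5 or fewer. Alternatives were other normalizations (RLE, totals only, upper quartile), no filter or at least 10 counts in every library, a replicate block, DESeq2 1.42.0, limma-voom (limma 3.58.1), a 2-fold rule, leaving out each library and other gene lengths. The shControl values in the study's supplement were not used, and single values of some genes in the lists are not reported here.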

Additional observations from a re-analysis of the deposited data

How the results depend on the processing

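The 10 log2 fold changes were recomputed under 14 alternatives each. Of the 140 values 129 kept their direction and their side of the threshold, 2 lost the call, 9 gained it and 0 changed direction. The number of called Notch genes was 5 and ranged from 4 to 7 over the alternatives. The number of other pathway genes called was 40, and it was 16 where a 2-fold change was also required and between 24 and 37 when 1 library was left out (25 without 501Mel replicate 2, 24 without Hermes 3A replicate 2 and 24 without Hermes 3A replicate 3). The number of all genes called was 8664 and ranged from 6104 to 9282 when 1 library was left out, with a lone 501Mel library assumed to vary like the others where a replicate of that line was left out. Nothing in the labels says that same-numbered libraries of the lines were made together. Their deviations from the line means had correlations of 0.102 and 0.137 across genes, but with 2 libraries of 501Mel these mirror the values for different numbers and do not settle whether the numbers pair the libraries. With the replicate block 7496 genes were called in all, 6 Notch genes and 28 other pathway genes. HES1 was the Notch gene whose call changed with the block (log2 fold change -1.38, adjusted p = 0.0154).

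DLL1 also passed with at least 10 counts in every library (log2 fold change 0.96, adjusted p = 0.0379), and JAG2 passed without a filter (-1.44, adjusted p = 0.0437). The shares per library set moved with the gene length. With the median transcript length and without length scaling, DLL3 had mean shares of the ligands of 3.03% and 5.18% in 501Mel (15.0% with the union exon length) and of 38.9% and 51.5% in Hermes 3A (77.0%). JAG1 had 94.6% and 89.1% in 501Mel (73.4%) and 58.2% and 42.6% in Hermes 3A (18.1%). NOTCH2 had 80.9% of the receptors in 501Mel with the median transcript length (89.2% with the union exon length), and 59.2% and 81.8% in Hermes 3A (73.4%). The causes were not tested. The median log2 fold change of all genes was 0.13 without a filter and 0.14 with DESeq2, which both took in more genes, against 0.02. The union of both gene lists, with missing genes at 0, was an alternative chosen after seeing the data, and it left 5 Notch genes and 40 other pathway genes called. With 2 and 3 libraries per line, the spread within 501Mel rests on a single difference per gene.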
